A study of Mus musculus with 20 samples.

Results

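The catalytic subunits of Polycomb repressive complex 1 (PRC1) and the cofactors that define its variant forms were followed through early mouse development at the level of messenger RNA. The 10 genes were taken by symbol from the deposited gene tables, out of 24411 genes listed, and all 10 were present. They are the E3 ubiquitin ligases Ring1 and Rnf2, the shared cofactors Rybp and Yaf2, and 6 genes that belong to particular variant complexes: Kdm2b, Bcor, Auts2, Fbrsl1, L3mbtl2 and Mga. All 10 passed the filter on low counts in each fit, Ring1 only through libraries later than the late 2-cell stage.

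RNA was sequenced from 16 pools of 10 mouse embryos each, made by in vitro fertilisation of superovulated oocytes and cultured in KSOM medium. In the knockdown experiment, siRNA against Pcgf5 (siPcgf5) or non-targeting siRNA (siControl) was electroporated 3 hours after insemination. Late 2-cell embryos from it were sampled 36 hours after insemination and morulae at 72 hours, each as 2 siPcgf5 and 2 siControl libraries. In the knockout experiment, 4-cell embryos were collected at 48 hours, as 3 libraries labelled Pcgf5MT2C_Mm Homo KO, 3 labelled Pcgf5MT2C_Mm Hetero KO and 2 labelled WT. MT2C_Mm is a name used for a class of endogenous retroviral long terminal repeats in the mouse genome. The labels give no strain, no parental genotype and no statement that libraries came from separate cultures, so a p-value here is set against variation among these libraries that may be technical. All libraries carry the batch label 1, and 4 further libraries of chromatin carrying H2AK119ub1 were not analysed here.

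PRC1 places ubiquitin on a lysine of histone H2A, the mark named H2AK119ub1. Every form of the complex holds RING1 or RNF2 as the ligase, bound to a PCGF protein that decides which other subunits can join. Variant forms carry RYBP or its paralogue YAF2 in place of the CBX proteins of canonical PRC1, and RYBP and YAF2 raise the activity of the ligase. PCGF1 complexes hold KDM2B, which binds unmethylated CpG-rich DNA through a CXXC zinc finger, and BCOR, a corepressor scaffold. PCGF3 and PCGF5 complexes hold AUTS2 or its paralogues such as FBRSL1. PCGF6 complexes hold L3MBTL2 and MGA, a large DNA-binding protein that pairs with MAX and is known for keeping germline genes silent in embryonic stem cells. In the oocyte and early embryo, variant PRC1 is known for placing this mark broadly.

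Promoter sequence from RefSeq on GRCm38.p6 (mm10) was matched for 7 of the 10 genes. Rybp, Yaf2 and Auts2 had no entry. The 250 bases before a listed start are printed 5′ to 3′ for the pair of ligases and for Kdm2b and Mga. The ligases behaved differently across stages. Kdm2b and Mga each had some stage steps called under every alternative run and others not called, as described below. For Mga, stage cannot be told apart from electroporation and experiment in the steps called in this way. Each CG dinucleotide is in capitals because KDM2B binds unmethylated CG. The regions are chr17:34024681-34024930 for Ring1, chr1:151500992-151501241 for Rnf2, chr5:122900368-122900617 for an internal start of Kdm2b (all on the minus strand) and chr2:119896978-119897227 for Mga (plus strand).
Ring1: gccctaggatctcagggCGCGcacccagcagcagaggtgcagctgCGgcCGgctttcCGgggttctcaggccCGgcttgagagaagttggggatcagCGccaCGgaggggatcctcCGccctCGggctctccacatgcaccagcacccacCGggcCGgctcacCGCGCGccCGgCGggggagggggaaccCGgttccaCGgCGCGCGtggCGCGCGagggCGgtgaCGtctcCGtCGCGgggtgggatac
Rnf2: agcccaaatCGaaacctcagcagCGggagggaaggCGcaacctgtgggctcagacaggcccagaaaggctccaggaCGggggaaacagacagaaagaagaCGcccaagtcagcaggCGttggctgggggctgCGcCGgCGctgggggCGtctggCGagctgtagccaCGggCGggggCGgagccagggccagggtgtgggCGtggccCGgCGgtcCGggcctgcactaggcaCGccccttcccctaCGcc
Kdm2b, internal start: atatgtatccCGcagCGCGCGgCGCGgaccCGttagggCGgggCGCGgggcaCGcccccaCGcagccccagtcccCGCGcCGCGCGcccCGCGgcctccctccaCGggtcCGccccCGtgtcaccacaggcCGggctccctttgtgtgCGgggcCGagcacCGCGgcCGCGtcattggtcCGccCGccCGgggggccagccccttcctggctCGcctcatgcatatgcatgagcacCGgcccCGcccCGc
Mga: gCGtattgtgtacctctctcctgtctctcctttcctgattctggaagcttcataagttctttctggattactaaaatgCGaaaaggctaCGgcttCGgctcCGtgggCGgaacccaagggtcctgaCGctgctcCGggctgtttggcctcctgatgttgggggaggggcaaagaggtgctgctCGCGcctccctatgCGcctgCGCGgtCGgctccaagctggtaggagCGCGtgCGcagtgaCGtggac
These stretches hold 30 CG in Ring1, 20 in Rnf2, 36 before the internal Kdm2b start and 18 in Mga, against a median of 6 over 32841 promoters of the same length. Fewer CG than Ring1 were found in 94.1% of all promoters, fewer than Rnf2 in 82.0%, fewer than the internal Kdm2b start in 97.4% and fewer than Mga in 78.3%. The upstream Kdm2b starts, not printed, hold 12 and 27 CG (fewer in 66.5% and 91.4% of promoters), and the other internal start holds 38. On both strands, the letters GGGCGG (an SP or KLF-type match, in 32.7% of promoters) occurred 2 times in Ring1, 2 times in Rnf2, 5 times before the internal Kdm2b start and 1 time in Mga. The letters CACGTG, an E-box of the kind that MAX partners bind, occurred in none of the 12 promoters of the 7 genes and in 6.02% of all promoters. These are letter matches in a short window and say nothing of binding.

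Sequencing depth was 14310634 to 55620137 summed expected counts, and the 10 most abundant genes of a library took 5.27% to 8.45% of them. Marker genes followed the stage labels. The summed level of 8 genes of the 2-cell stage was 2055 to 3760 CPM (read counts relative to TMM-scaled library sizes, set over all 16 libraries) in late 2-cell libraries, 76.4 to 809 CPM at the 4-cell stage and 13.1 to 50.6 CPM in morulae. Of 10 genes of morula and blastocyst lineages, the sum was 47.6 to 66.6 CPM, 27.0 to 78.9 CPM and 483 to 602 CPM at those stages. The 2-cell stage sums did not overlap between siPcgf5 and siControl. They were 2966 to 3760 against 2055 to 2601 CPM at the late 2-cell stage, and 13.1 to 28.0 against 49.7 to 50.6 CPM in morulae. Their part in the knockdown comparisons was not tested. Pcgf5, the targeted gene, had 53.9 and 89.4 CPM in siPcgf5 late 2-cell libraries, against 316 and 811 CPM in siControl. In morulae it had 39.5 and 32.4 CPM with siPcgf5, against 246 and 166 CPM with siControl. Its log2 fold changes were -2.96 at the late 2-cell stage and -2.53 in morulae, neither called over all genes by edgeR (adjusted p = 0.0789 and 0.242), while the DESeq2 Wald test called both (adjusted p = 5.09e-09 and 1.36e-05). Homo KO libraries had 162 to 211 CPM of Pcgf5, Hetero KO 252 to 336 CPM and WT 294 and 328 CPM.

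**Figure D1:**
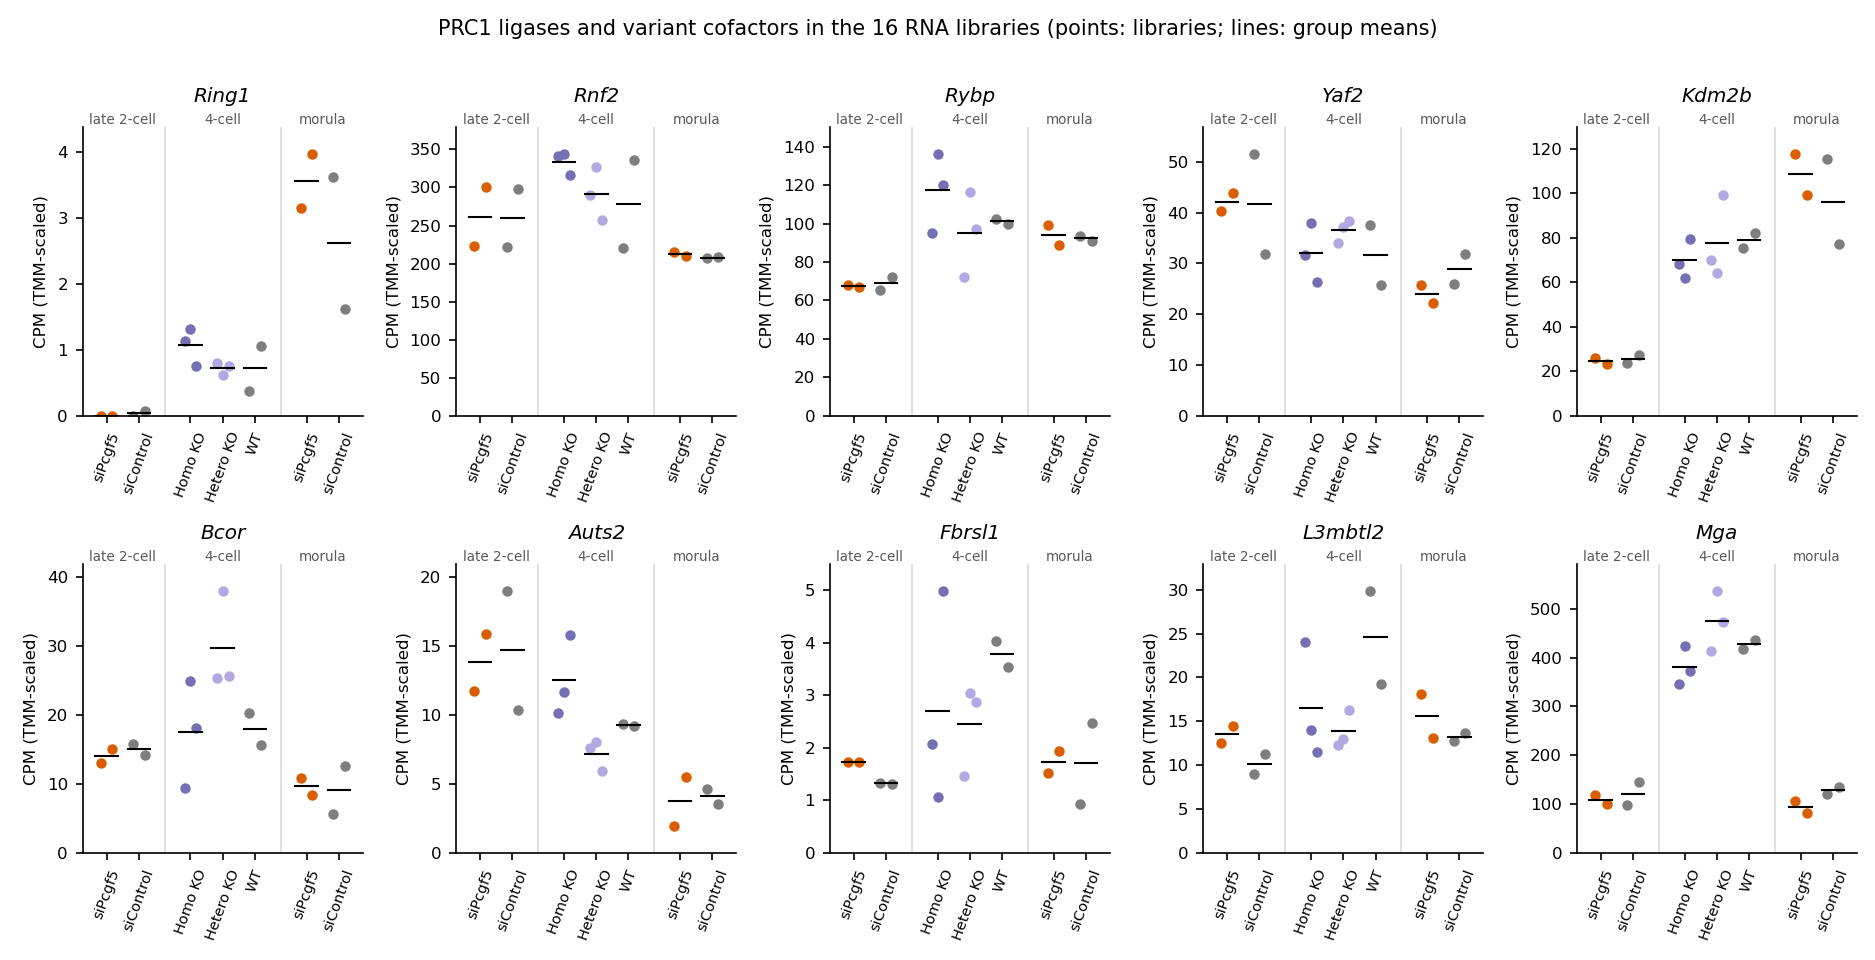
Level of each of the 10 genes (CPM, TMM-scaled, axis from 0) in the 16 libraries, by group within stage. Points are libraries and lines are group means. Ring1 lies near 0 at the late 2-cell stage and highest in morulae, and Mga stands between 345 and 537 CPM in all 8 4-cell libraries.

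The levels of the 10 genes can be compared with each other on the TPM scale, which accounts for transcript length. Rnf2 was the most abundant of the 10 in every group, with group means of 57.4 to 144 TPM, and no library of any group overlapped with the next gene. In siPcgf5 late 2-cell libraries the order below Rnf2 was Yaf2 (30.0 TPM), Rybp (23.8), Mga (11.9), Kdm2b (9.06), L3mbtl2 (6.87), Auts2 (3.47), Bcor (3.42), Fbrsl1 (0.650) and Ring1 (0). Auts2 and Bcor overlapped there, and in siControl late 2-cell libraries Yaf2 overlapped with Rybp, L3mbtl2 with Auts2, and Auts2 with Bcor. At the 4-cell stage Mga stood second in all 3 genotypes, with means of 34.7 TPM in Homo KO, 43.2 in Hetero KO and 39.1 in WT. In Homo KO it overlapped with Rybp (34.3 TPM), which was above Mga in 2 of the 3 libraries. In morulae Kdm2b stood second, with 25.8 TPM in siPcgf5 and 22.4 TPM in siControl, and Mga had 5.60 TPM in siPcgf5 and 7.53 TPM in siControl. Bcor, Auts2, Fbrsl1 and Ring1 made up the low end at the morula stage, each with a mean under that of L3mbtl2. Averaged over all libraries, the TPM of Rnf2 stood at the 94.6th percentile of all listed genes and that of Ring1 at the 49.6th.

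Knockdown of Pcgf5 was compared with its control to see whether messages of the other subunits differed when this PCGF protein was reduced. None of the 10 genes was called at the late 2-cell stage (0 of 10 by edgeR at an adjusted p under 0.05, where 0.0118% of 16980 genes were called) or in morulae (0 of 10, with 0% called). At an unadjusted p under 0.05 the number was again 0 of 10 at each stage, against 947 and 716 of 16980 genes. The DESeq2 Wald test and limma on log2(TPM + 1) also called 0 of 10. The bulk libraries cannot tell fewer cells with a message from less message per cell.

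The ligase Rnf2 had 223 and 300 CPM in siPcgf5 late 2-cell libraries, against 221 and 298 CPM in siControl. In morulae it had 215 and 210 CPM with siPcgf5, against 207 and 208 CPM with siControl. Its log2 fold changes were 0.03 (95% interval -0.48 to 0.54) and 0.02 (-0.48 to 0.53), so both intervals lay within a change of 1 on the log2 scale. The other ligase, Ring1, was counted 0 times in the siPcgf5 late 2-cell libraries and 2 times in the siControl ones, both of those counts in replicate 2. Both groups are at or under a floor of 3 counts per group, and no fold is given. In morulae Ring1 had 3.16 and 3.98 CPM with siPcgf5, against 3.61 and 1.61 CPM in the siControl pair, which overlapped (log2 fold change 0.44, interval -1.66 to 2.54).

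Among the cofactors of every variant complex, Rybp differed least, with log2 fold changes of -0.01 (interval -0.46 to 0.43) at the late 2-cell stage and 0.01 (-0.43 to 0.46) in morulae. Its paralogue Yaf2 had 25.6 and 22.1 CPM in siPcgf5 morulae, against 26.0 and 31.9 CPM in siControl morulae. The groups did not overlap, and the log2 fold change of -0.29 had an interval of -0.92 to 0.33. Kdm2b had log2 fold changes of -0.03 (interval -0.58 to 0.53) and 0.16 (-0.39 to 0.71), and Bcor of -0.08 (-0.98 to 0.82) and 0.07 (-0.84 to 0.97).

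Auts2 and Fbrsl1, the partners of PCGF5 itself, were measured with wider intervals. Auts2 had 11.7 and 15.8 CPM in siPcgf5 late 2-cell libraries, against 19.0 and 10.3 CPM in the siControl pair, a log2 fold change of -0.07 (interval -1.21 to 1.07). In morulae its value was -0.14 (-1.30 to 1.02). Fbrsl1 stood at 0.929 to 2.48 CPM in all 8 knockdown libraries, and its intervals reached from -1.28 to 2.08 and from -1.66 to 1.68. These intervals do not exclude a change of 1 on the log2 scale in either gene.

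L3mbtl2 and Mga are the partners of PCGF6. L3mbtl2 had 12.6 and 14.4 CPM in siPcgf5 late 2-cell libraries, against 8.97 and 11.2 CPM in the siControl pair, and the interval of its log2 fold change of 0.43 ran from -0.29 to 1.16. Mga had 107 and 80.7 CPM in siPcgf5 morulae, against 120 and 135 CPM in siControl morulae (log2 fold change -0.46, interval -1.02 to 0.09). Neither was called. Groups did not overlap for 2 of the 10 genes at the late 2-cell stage (31.1% of all genes) and for 3 in morulae (31.4%), shares near or below the background. The effect at the morula stage minus that at the late 2-cell stage was called for 0 of 10 genes by edgeR (0% of all genes). At an unadjusted p under 0.05 the number was also 0 of 10, against 842 of 16980 genes. The 9 genes with a fold had values of -0.40 to 0.19 on the log2 scale.

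**Figure D2:**
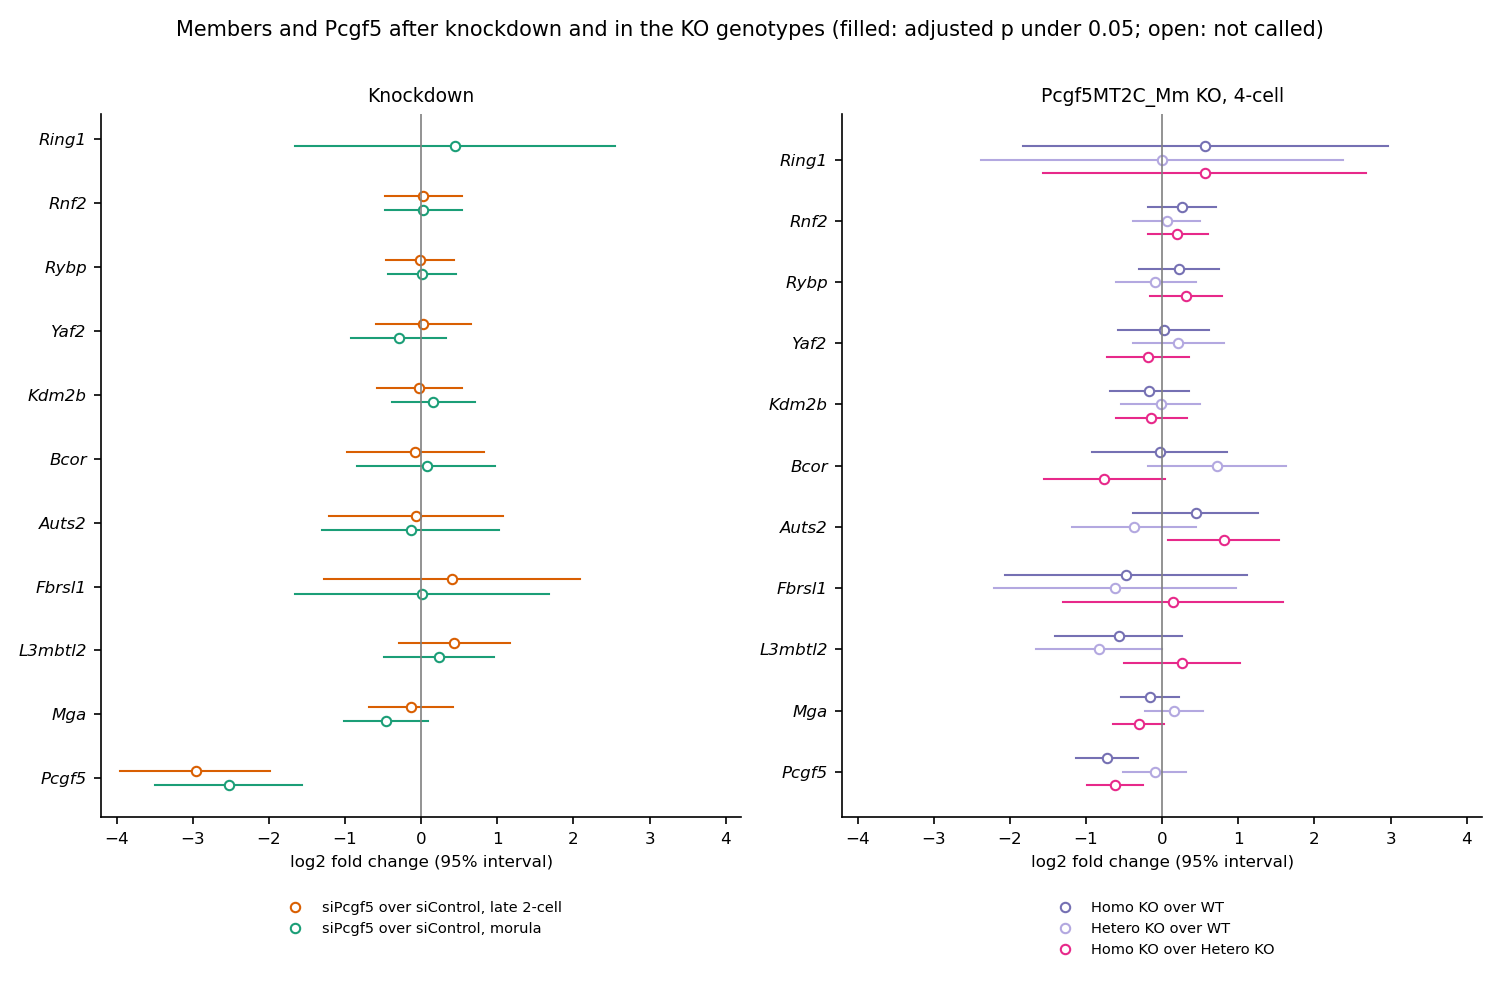
Log2 fold changes with 95% intervals of the 10 genes and of Pcgf5. The left panel gives siPcgf5 over siControl at both stages, and the right panel the 3 comparisons of genotypes at the 4-cell stage. Open symbols were not called, which is every symbol here, and Ring1 has no fold at the late 2-cell stage.

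The genotypes at the 4-cell stage were compared in the same way. Pcgf5 itself had log2 fold changes of -0.72 in Homo KO and -0.10 in Hetero KO, each against WT, and of -0.62 in Homo KO over Hetero KO, none of them called (edgeR adjusted p = 0.236, 0.987 and 0.424). Its libraries overlapped between Hetero KO and WT. None of the 10 genes was called in Homo KO against WT, in Hetero KO against WT or in Homo KO against Hetero KO (0 of 10 by edgeR each, 0% of 13766 genes each). DESeq2 and limma on log2(TPM + 1) called 0 of 10 in each as well. At an unadjusted p under 0.05 the numbers were 0, 0 and 1 of 10, against 1701, 655 and 1131 of 13766 genes. None of these counts stands out above its background.

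Rnf2 had 316 to 345 CPM in Homo KO, 257 to 327 CPM in Hetero KO, and 221 and 337 CPM in WT. Its log2 fold changes were 0.26 (interval -0.18 to 0.71) in Homo KO and 0.06 (-0.38 to 0.50) in Hetero KO, each against WT. Ring1 was counted 50 times over the Homo KO libraries, 34 times over the Hetero KO libraries and 24 times over the WT libraries, so its interval in Homo KO against WT ran from -1.83 to 2.96. Rybp, Yaf2 and Kdm2b had log2 fold changes between -0.17 and 0.22 in these comparisons against WT, with all 6 intervals within a change of 1.

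Auts2 was the gene with an unadjusted p under 0.05. It had 10.1, 11.6 and 15.7 CPM in Homo KO, against 7.60, 7.99 and 5.95 CPM in Hetero KO. The WT libraries, at 9.34 and 9.18 CPM, lay between those groups. Its log2 fold change in Homo KO over Hetero KO was 0.81 (SE 0.335, edgeR adjusted p = 0.589). The summed 2-cell stage markers also differed between these libraries, at 665.5 to 808.7 CPM in Homo KO, 150.7 to 283.7 CPM in Hetero KO and 76.4 to 525 CPM in WT, and their part in the values of the 10 genes was not tested. Bcor had 9.39, 24.9 and 18.1 CPM in Homo KO, 25.3, 38.0 and 25.6 CPM in Hetero KO, and 20.3 and 15.6 CPM in WT. Its log2 fold change against WT was -0.03 (interval -0.92 to 0.85) in Homo KO, where the groups overlapped. In Hetero KO it was 0.72 (-0.18 to 1.63), where the groups did not overlap. The Homo KO libraries of Bcor spread over more than the WT pair, and its log2 fold change in Homo KO over Hetero KO was -0.76 (interval -1.55 to 0.04).

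L3mbtl2 had 24.1, 14.0 and 11.5 CPM in Homo KO, 12.3, 13.0 and 16.3 CPM in Hetero KO, and 29.9 and 19.3 CPM in WT. All Hetero KO libraries were below both WT libraries, with a log2 fold change of -0.83 (SE 0.380, edgeR adjusted p = 0.945). The Homo KO libraries overlapped with WT (-0.57, interval -1.41 to 0.26). Mga had log2 fold changes of -0.16 (interval -0.54 to 0.22) in Homo KO and 0.15 (-0.23 to 0.53) in Hetero KO against WT. Groups did not overlap for 1, 4 and 2 of the 10 genes in the 3 comparisons, where the shares over all genes were 30.4%, 20.6% and 14.7%.

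Between stages, some of these genes were called. From the late 2-cell stage to the morula, Ring1 and Kdm2b were higher and Auts2 was lower, each in siPcgf5 and in siControl libraries. Those libraries share no sample, but both comparisons used the same fit with a shared estimate of the spread. Ring1 is in the counts that follow, though it could enter either test only by being higher in morulae. In siPcgf5 embryos 4 of the 10 genes were called (52.7% of all genes), and in siControl embryos 3 of 10 (52.9%), shares below the background. Over all genes, 24.5% were called higher and 28.2% lower in siPcgf5, and 24.9% higher and 28.1% lower in siControl.

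Ring1 was nearly absent at the start. It was counted 96 and 174 times in siPcgf5 morulae, against 0 and 0 times in siPcgf5 late 2-cell embryos. With a floor of 3 counts over the group, this is at least 89.7-fold higher, scaled to library size (edgeR adjusted p = 0.000809). Ring1 passed the filter on low counts only through the morula libraries, so a gene like it could enter this test only by being higher there. In siControl embryos it was counted 140 and 63 times in morulae, against 0 and 2 times at the late 2-cell stage, a ratio of 91.6 with an exact interval for counting error of 25.0 to 762 (edgeR adjusted p = 0.00289). No morula library came near the late 2-cell values. Even so, Ring1 stayed low in morulae, at 0.690 to 1.69 TPM.

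Its share of the ligase messages stayed small. Ring1 made up 0% to 0.0383% of the summed Ring1 and Rnf2 TPM in the 4 late 2-cell libraries, 0.266% to 0.581% in the 8 4-cell libraries and 1.18% to 2.83% in the 4 morula libraries. These ranges do not overlap. The late 2-cell range rests on 2 counts of Ring1, both in siControl replicate 2. The 4-cell libraries came from the knockout experiment and were not electroporated. Stage, electroporation and experiment thus cannot be told apart where the 4-cell stage is compared. Rnf2 had 57.0 to 61.3 TPM in the 4 morula libraries, against 113 to 160 TPM in the 4 late 2-cell libraries. On the CPM scale Rnf2 had 207 to 215 CPM in morulae, against 221 to 300 CPM at the late 2-cell stage, and the log2 fold change was -0.32 (SE 0.230) in siPcgf5 and -0.31 (SE 0.230) in siControl, called in neither. Whether Rnf2 was called lower thus depended on the scale: in siPcgf5 and siControl, limma on log2(TPM + 1) gave -1.16 and -1.29, and edgeR with library totals in place of TMM gave -0.91 and -0.95, all with an adjusted p under 0.05.

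**Figure D3:**
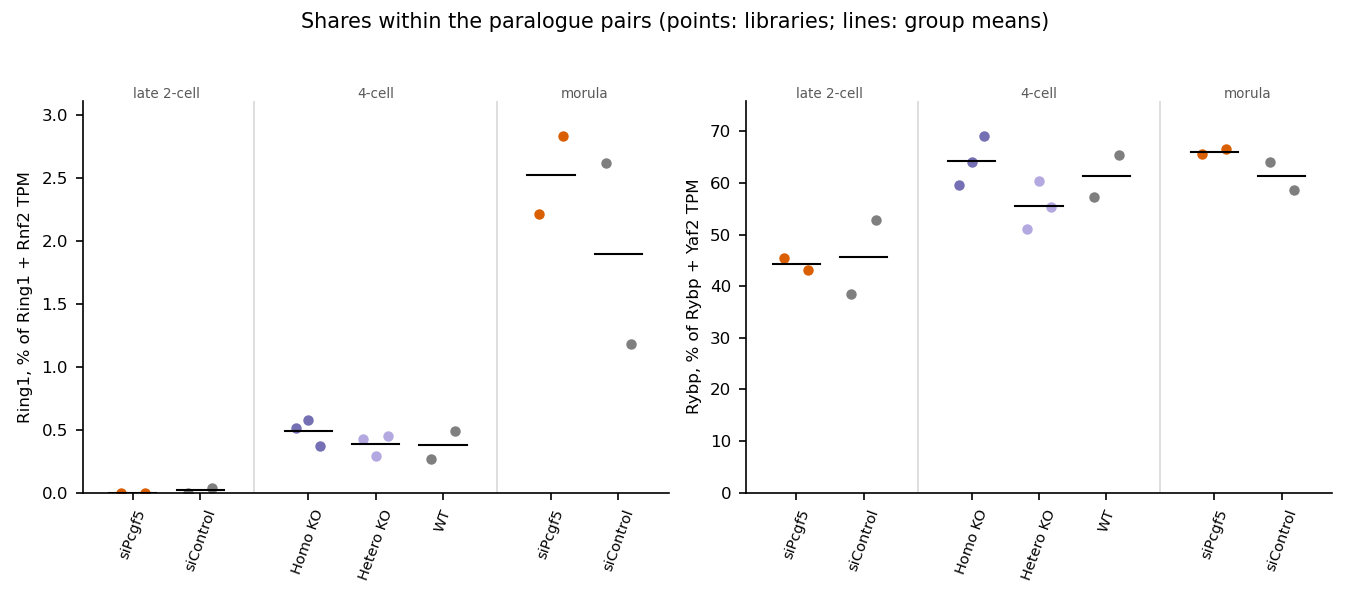
Share of Ring1 in the summed TPM of Ring1 and Rnf2 (left) and of Rybp in the summed TPM of Rybp and Yaf2 (right), in percent, per library with group means as lines. The Ring1 share is 0% to 0.0383% at the late 2-cell stage, 0.266% to 0.581% at the 4-cell stage and 1.18% to 2.83% in morulae, and the Rybp share 38.5% to 52.8%, 51.0% to 69.1% and 58.6% to 66.5%.

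The balance of Rybp and Yaf2 also shifted. Rybp made up 38.5% to 52.8% of their summed TPM at the late 2-cell stage, 51.0% to 69.1% at the 4-cell stage and 58.6% to 66.5% in morulae. The same limit holds for the 4-cell libraries here. Yaf2 had 25.6 and 22.1 CPM in siPcgf5 morulae, against 40.4 and 43.8 CPM in siPcgf5 late 2-cell embryos. This fall passed the test (log2 fold change -0.84, SE 0.284, edgeR adjusted p = 0.029), though it did not with any of those 4 libraries left out. In siControl embryos Yaf2 had 26.0 and 31.9 CPM in morulae, against 51.6 and 31.9 CPM at the late 2-cell stage, and was not called (-0.52, edgeR adjusted p = 0.143), although it was called lower without late 2-cell replicate 2, with library totals (-1.18) and with limma on log2(TPM + 1) (-1.42). The difference between those stage effects was -0.32 (SE 0.398) and was not called. Rybp was at 88.8 to 99.3 CPM in the 4 morula libraries, against 65.5 to 72.5 CPM in the 4 late 2-cell libraries, yet neither log2 fold change was called (0.45 in siPcgf5 and 0.43 in siControl). Its direction turned with the scale, to -0.40 in siPcgf5 and -0.55 in siControl with limma on log2(TPM + 1), where the siControl value was called lower (limma adjusted p = 0.0316), and to -0.13 and -0.21 with library totals.

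After Ring1, Kdm2b had the largest called stage change of the 10. It had 118 and 99.2 CPM in siPcgf5 morulae, against 26.1 and 23.3 CPM in siPcgf5 late 2-cell embryos. Its log2 fold change was 2.12 (SE 0.259, edgeR adjusted p = 6.5e-05). In siControl embryos it had 115 and 77.2 CPM in morulae, against 23.7 and 27.1 CPM at the late 2-cell stage (1.93, SE 0.257, edgeR adjusted p = 0.000114). The rise was called under every alternative run, down to 1.29 in siControl with library totals and 0.99 with limma on log2(TPM + 1).

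The transcript make-up of Kdm2b moved as well. Kdm2b is known to give a long protein with a JmjC demethylase domain and, from an internal start, a short one that lacks it and keeps the CXXC zinc finger. The deposited files hold 2 Kdm2b transcripts and give their abundance-weighted mean length per library, and RefSeq lists a start 88732 bases upstream of the internal start whose promoter is printed above. That length was 3850.9 to 4373.2 bases in the 4 late 2-cell libraries, 3549.1 to 3706.6 bases in the 8 4-cell libraries and 3540.4 to 3579.1 bases in the 4 morula libraries. The late 2-cell libraries do not overlap with the other 12. Of those, the 8 4-cell libraries came from the knockout experiment and were not electroporated. How many other genes separate by length in this way was not counted. The files used here do not say which length belongs to which form, so the shift shows a larger share of the shorter transcript and no more. For comparison, the weighted length of Mga stayed within 13441.8 to 13716.4 bases in all 16 libraries. It also separated late 2-cell libraries (13605.2 to 13716.4 bases) from morula libraries (13441.8 to 13560.9 bases), in the same direction as Kdm2b and by less. Other genes varied more within a stage, L3mbtl2 from 2965.3 to 3452.2 bases in late 2-cell libraries. Fbrsl1, with low counts, ran from 3766.0 to 4722.0 bases in morulae.

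**Figure D4:**
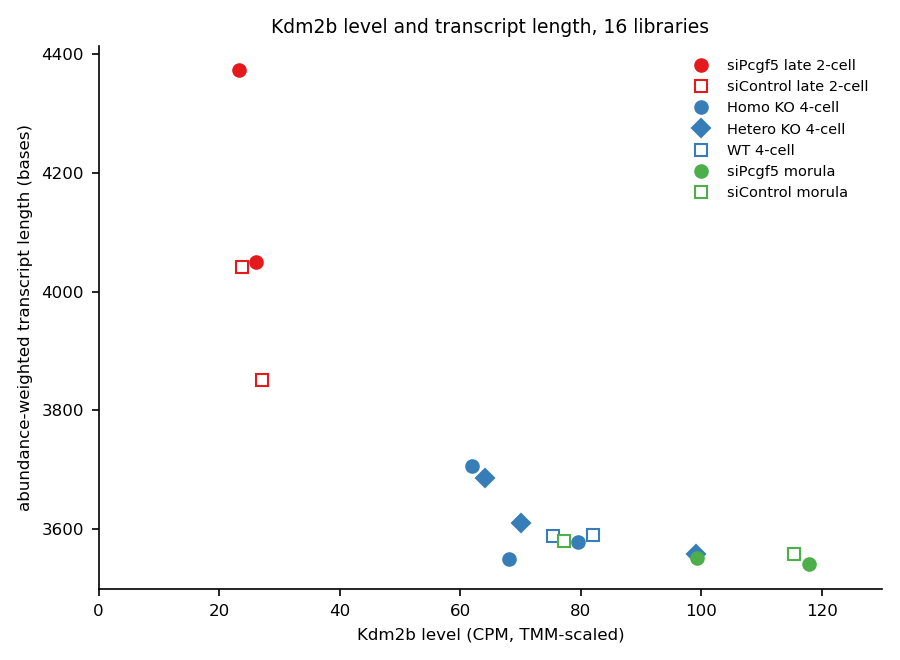
Abundance-weighted transcript length of Kdm2b in bases (y axis, not from 0) against its level in CPM (x axis) in the 16 libraries, with colours for stages and symbols for groups. The 12 4-cell and morula libraries lie at 3540.4 to 3706.6 bases and 61.9 to 118 CPM, and the 4 late 2-cell libraries at 3850.9 to 4373.2 bases and 23.3 to 27.1 CPM.

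Auts2 fell. It had 1.94 and 5.51 CPM in siPcgf5 morulae, against 11.7 and 15.8 CPM in siPcgf5 late 2-cell embryos (log2 fold change -1.90, SE 0.535, edgeR adjusted p = 0.0122). In siControl embryos it had 4.65 and 3.55 CPM in morulae, against 19.0 and 10.3 CPM at the late 2-cell stage (-1.83, SE 0.533, edgeR adjusted p = 0.0145). The call was lost in siPcgf5 without late 2-cell replicate 2 (-1.66) or without morula replicate 1 (-1.33), and in siControl without late 2-cell replicate 1 (-1.32) or without morula replicate 2 (-1.64). Its paralogue Fbrsl1 had 1.51 and 1.94 CPM in siPcgf5 morulae, against 1.72 and 1.74 CPM in siPcgf5 late 2-cell embryos, and was not called in either treatment.

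Bcor, L3mbtl2 and Mga were not called between these stages by edgeR with TMM. Bcor had log2 fold changes of -0.56 (interval -1.47 to 0.34) in siPcgf5 and -0.71 (-1.62 to 0.20) in siControl. For L3mbtl2 the values were 0.19 in siPcgf5 and 0.39 in siControl, and for Mga -0.24 and 0.09. The directions of both in siControl, and of L3mbtl2 in siPcgf5, turned with library totals. With library totals in place of TMM the counts of called genes were 7 of 10 in siPcgf5 and 6 of 10 in siControl, with Rnf2, Bcor and Yaf2 called lower in both and Mga in siPcgf5 (-0.82, edgeR adjusted p = 0.0139). Limma on log2(TPM + 1) called Bcor and Mga lower in both (Mga at -0.97 and -0.79, limma adjusted p = 0.00946 and 0.0226) and L3mbtl2 lower in siPcgf5 (-0.72, limma adjusted p = 0.0374). Without siControl morula replicate 2, Bcor was called in siControl by edgeR. Library totals moved the median log2 fold change of all genes by -0.59 in siPcgf5 and by -0.64 in siControl. They split the calls in siControl into 2876 higher and 6280 lower, in place of 4220 higher and 4766 lower. In siPcgf5 the split was 2890 higher and 6302 lower, in place of 4162 higher and 4787 lower. Ring1, Kdm2b and Auts2 kept their direction and call under each scaling.

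**Figure D5:**
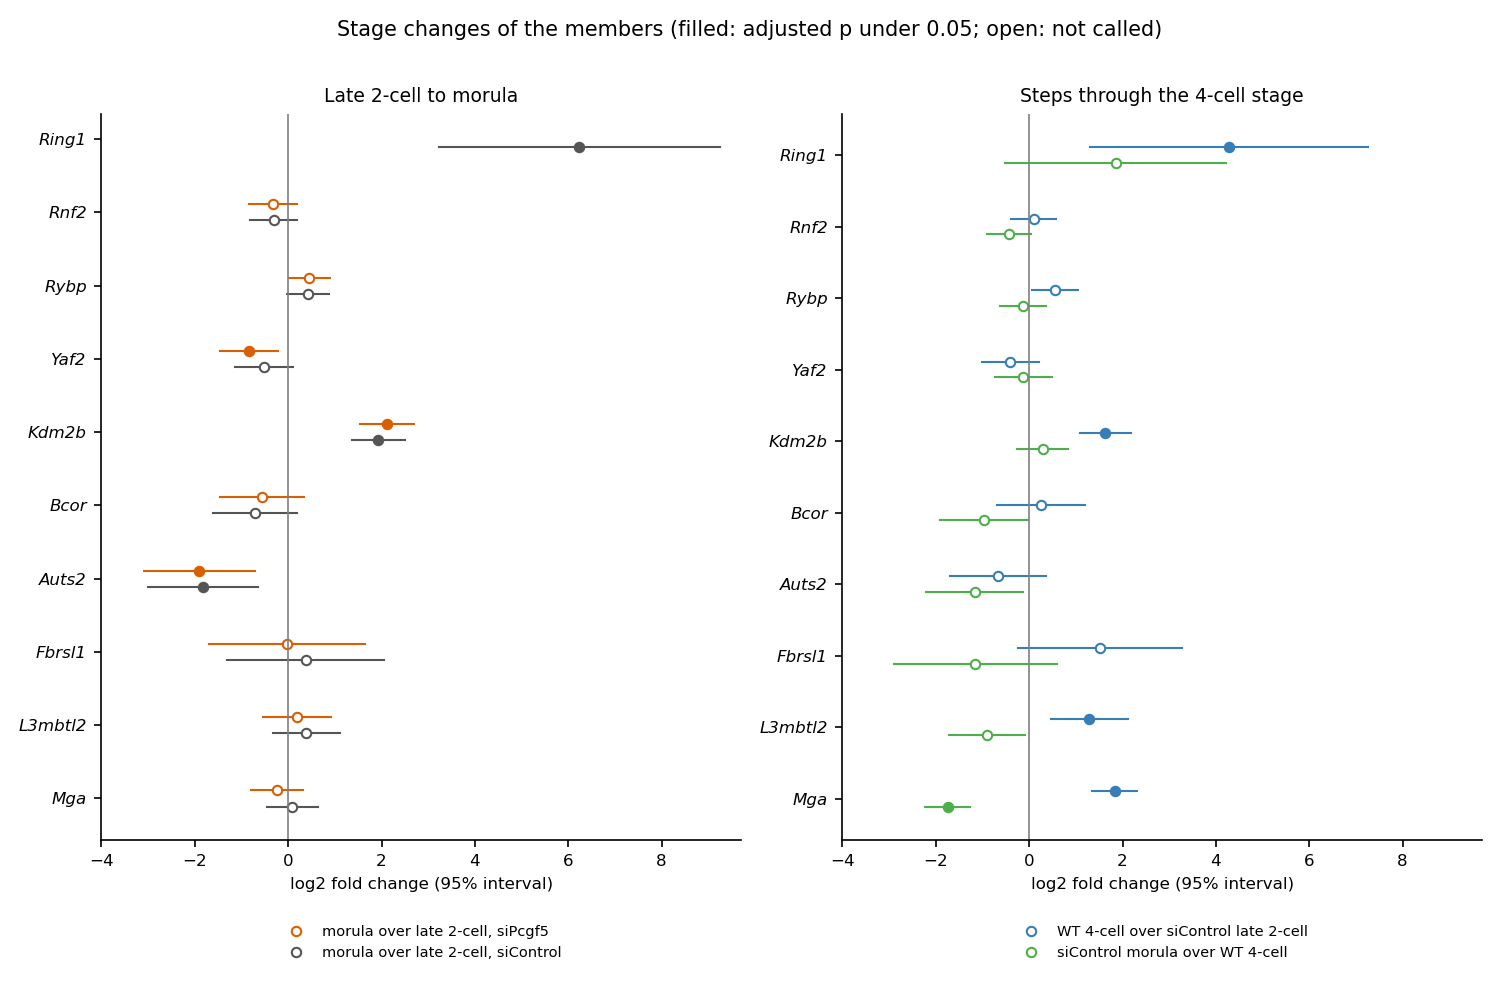
Log2 fold changes with 95% intervals for the 10 genes between stages. The left panel gives morula over late 2-cell embryos in siPcgf5 and siControl, and the right panel WT 4-cell over siControl late 2-cell and siControl morula over WT 4-cell. Filled symbols have an edgeR adjusted p under 0.05, and Ring1 in siPcgf5, with 0 counts at the late 2-cell stage, is not drawn. Mga is called in both steps of the right panel, at 1.83 and -1.74.

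Mga, the scaffold of the PCGF6 complex, was highest at the 4-cell stage. It had 418 and 437 CPM in WT 4-cell embryos, against 97.1 and 144 CPM in siControl late 2-cell embryos. The log2 fold change was 1.83 (SE 0.229, edgeR adjusted p = 3.14e-05). In siControl morulae it was back at 120 and 135 CPM, with a log2 fold change of -1.74 (SE 0.228, edgeR adjusted p = 3.71e-05) over WT 4-cell embryos. The Homo KO libraries had 345 to 425 CPM and the Hetero KO libraries 413 to 537 CPM, so no 4-cell library of any genotype overlapped with the 8 others, which ran from 80.7 to 144 CPM. Both steps were called under every alternative run, from 1.45 to 2.09 for the rise and from -1.62 to -2.23 for the fall. Since 4-cell embryos came from the knockout experiment and were not electroporated, stage, electroporation and experiment cannot be told apart in these steps.

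From siControl late 2-cell to WT 4-cell embryos 4 of the 10 genes were called, all higher (32.6% of 16669 genes were called, 17.5% higher and 15.2% lower). Besides Mga these were Kdm2b, Ring1 and L3mbtl2. Kdm2b had 75.5 and 82.1 CPM in WT 4-cell embryos, against 23.7 and 27.1 CPM in siControl late 2-cell embryos (log2 fold change 1.63, SE 0.263, edgeR adjusted p = 0.000222). The step from WT 4-cell embryos to siControl morulae was not called (0.29, interval -0.25 to 0.83). Ring1 was counted 24 times in WT 4-cell libraries, against 2 times in siControl late 2-cell libraries, a ratio of 25.7, scaled to library size, with an exact interval for counting error of 6.38 to 224 (edgeR adjusted p = 0.0228). That call was lost without WT replicate 2 (log2 fold change 3.35), without siControl late 2-cell replicate 1 (3.14) and on the log2(TPM + 1) scale in limma (0.50). In a fit of those groups alone Ring1 did not pass the filter on low counts, so it is in this test only through the counts of other groups.

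L3mbtl2, which encodes the MBT-domain partner of PCGF6, had 29.9 and 19.3 CPM in WT 4-cell embryos, against 8.97 and 11.2 CPM in siControl late 2-cell embryos (log2 fold change 1.28, SE 0.390, edgeR adjusted p = 0.0189). The Homo KO and Hetero KO libraries lay at 11.5 to 24.1 CPM. The call was lost without WT replicate 1 (0.89), without either siControl late 2-cell library (1.08 and 1.40), with library totals (1.04), with limma on log2(TPM + 1) (0.76) and in a fit of those groups alone (1.25). The 2 WT libraries also stood apart in the summed 2-cell stage markers, at 76.4 and 525 CPM, and the part of this in the result was not tested. From WT 4-cell embryos to siControl morulae only Mga was called among the 10 by edgeR with TMM (1 of 10, with 30.2% of all genes called, 14.9% higher and 15.3% lower). The DESeq2 Wald test also called Auts2 and L3mbtl2 lower there, library totals also Rnf2 and Bcor, and limma all of these and Rybp.

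Groups did not overlap for 7 of the 10 genes in siPcgf5 and 7 in siControl between late 2-cell embryos and morulae (80.6% and 78.8% of all genes), for 7 from siControl late 2-cell to WT 4-cell embryos (68% of all genes), and for 8 from WT 4-cell embryos to siControl morulae (65.6%). None of these shares stands out from its background.

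Marker genes of other cells differed between stages too. The sum of 12 cumulus and granulosa markers was 5.67 to 12.2 CPM in the 4 morula libraries, against 32.0 to 51.2 CPM in the 4 late 2-cell libraries. Of 7 blood markers the sum was 16.5 to 39.0 CPM in morulae, against 249 to 354 CPM at the late 2-cell stage, and of 6 sperm markers 0.748 to 1.58 CPM, against 10.3 to 14.3 CPM. In each group of 2 knockdown libraries, 4 to 7 of the cumulus and granulosa markers and 3 to 5 of the blood markers were at 0. The summed level of 9 oocyte genes was 51.0 to 71.2 CPM in morulae, against 13700 to 18840 CPM at the late 2-cell stage. The blood sum also differed between siPcgf5 and siControl, at 328 to 354 against 249 to 255 CPM in late 2-cell embryos. In morulae it was 22.7 to 39.0 against 16.5 to 19.3 CPM. The cumulus and granulosa sum was 37.1 to 51.2 against 32.0 to 33.2 CPM in late 2-cell embryos. Sperm and oocyte sums overlapped in late 2-cell embryos. In morulae the sperm sum was 1.12 to 1.58 CPM with siPcgf5, against 0.748 to 0.945 CPM with siControl. The oocyte sums and the cumulus and granulosa sums overlapped in morulae. The part of all these markers in the stage and knockdown results was not tested.

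The partners of these 10 genes were counted in lists chosen by complex. Between late 2-cell and morula, PCGF subunits were called lower for 3 of 6 in siPcgf5 and 4 of 6 in siControl, and higher for 0 in each. Over all genes, 24.5% were higher and 28.2% lower in siPcgf5, and 24.9% and 28.1% in siControl, and no list was tested against these shares. Bmi1, the canonical PCGF4 subunit, had log2 fold changes of -4.73 in siPcgf5 and -5.23 in siControl, and in the same order Pcgf6, which anchors L3MBTL2 and MGA, had -1.47 and -2.22. Of 10 canonical PRC1 subunits, 4 in siPcgf5 and 6 in siControl were lower and 0 higher, among them Scml2 (-6.29 and -7.64), Phc2 (-3.69 and -4.16) and Cbx2 (-3.51 and -4.05). Of the other variant PRC1 subunits, 7 of 14 were higher and 2 lower in siPcgf5, and 7 higher and 3 lower in siControl. Wdr5, a WD-repeat subunit of the PCGF6 complex, had values of 2.12 and 1.97, and E2f6, its E2F-family repressor, of 2.09 and 2.30.

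The enzymes that remove ubiquitin from H2A and their partners had 4 of 11 higher and 4 lower in siPcgf5, and 3 higher and 5 lower in siControl, where 24.5% to 24.9% of all genes were higher and 28.1% to 28.2% lower. Usp16 fell (log2 fold change -1.46 in siPcgf5 and -1.55 in siControl) and Usp22 rose (1.87 and 2.08). PRC2, which places the H3K27 methylation linked to PRC1, had 4 of 12 subunits higher and 2 lower in siPcgf5, and 3 of each in siControl, with Jarid2, a subunit that binds ubiquitinated H2A, at 3.19 and 3.34. Germline genes known as targets of the PCGF6 complex were lower for 11 of 12 in siPcgf5 and 10 of 12 in siControl, and higher for 0, among them Dazl, an RNA-binding germ cell factor, at -3.95 and -3.89. Many of these germline genes are also made by the oocyte, so their list overlaps in kind with the oocyte markers above. The median log2 fold change of the 12 was -3.07 in siPcgf5 and -1.92 in siControl, against -0.38 and -0.34 over all genes tested. By edgeR with TMM, no gene of any of these lists was called in a comparison of siPcgf5 with siControl or of the genotypes, Pcgf5 included, which the DESeq2 Wald test called at both knockdown stages.

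The same lists were counted from siControl late 2-cell to WT 4-cell embryos, where 17.5% of all genes were higher and 15.2% lower. Of 6 PCGF subunits, 0 were higher and 2 lower, of 10 canonical PRC1 subunits 0 and 3, of 14 other variant subunits 3 and 3, of 11 H2A deubiquitinases and partners 3 and 2, and of 12 PRC2 subunits 1 and 1. Max, which pairs with MGA, was lower (log2 fold change -2.14, SE 0.398, edgeR adjusted p = 0.000715). Usp7, a deubiquitinase found with variant PRC1, was higher (1.40, SE 0.189, edgeR adjusted p = 5.27e-05), as was Mysm1, an H2A deubiquitinase (1.61, SE 0.249, edgeR adjusted p = 0.00016). Of the 12 germline genes, 3 were higher and 4 lower in this step, and from WT 4-cell embryos to siControl morulae 0 were higher and 11 lower (14.9% and 15.3% of all genes).

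Among 6536 genes with a mean of at least 10 CPM, the patterns most like that of Ring1 over the 16 libraries were those of Tmed10, Mrps5 and Psmc5 (Pearson r of log2 CPM 0.982, 0.982 and 0.98). For Rnf2 they were Kctd9, Actr6 and Itgav (0.928, 0.897 and 0.887). All 16 libraries share the stage difference and their normalisation, and these values are descriptions. Of the listed genes, 1 overlaps L3mbtl2 on the genome (Chadl, at most 4.94 CPM in any library) and 1 overlaps Auts2 (4930563F08Rik, at most 0.0774 CPM), and no statement on strand is given in the sources used here.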

How the data were processed

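RNA was measured with SMART-Seq v4 PLUS in 16 libraries. Each file holds, per gene, an expected count that the authors did not normalise, TPM and an abundance-weighted transcript length in bases, per the file headers. The deposited expected counts and TPM have the column layout of RSEM. The submitters' processing notes list STAR 2.7.10, RSEM 1.3.3, Bowtie2 2.4.5, deepTools and mm10 with no roles. Read filters are not given in the sources used here.

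Expected counts were rounded to whole numbers (6.5% were not whole), filtered with filterByExpr (minimum count 10), normalised by TMM, and edgeR 4.0.16 was run in R 4.3.3 (robust quasi-likelihood F test, two-sided, Benjamini-Hochberg over all genes tested, threshold 0.05). The 8 knockdown libraries (16980 genes, common coefficient of variation 0.46), the 8 4-cell libraries (13766 genes, 0.517) and, for steps between them, all 16 (16669 genes, 0.514) were fitted with 1 coefficient per group. CPM are TMM-scaled over all 16 libraries. SE is the absolute log2 fold change from the unshrunk coefficients of edgeR, divided by the square root of F. Intervals are 95% and are centred on the printed log2 fold change, which edgeR shrinks slightly. A group at 0 was given a floor of 3 counts over the group. Floors and count intervals cover counting error only, since PCR reads without molecular identifiers are not independent molecules. The code was tested on simulated data: for siPcgf5 against siControl at the late 2-cell stage (16411 genes), 4% of genes changed by 1 on the log2 scale and 42% of those changed by 2 were recovered.

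The 10 genes and the lists were chosen with earlier results of these data known. The naming rule took all 10, Pcgf5, up to 3 called genes with the smallest p per list and comparison, and the 3 genes most correlated with each ligase. Lists were described by counts and medians, with no set test. Alternatives were DESeq2 1.42.0 size factors, its Wald test, no filter on low counts, limma 3.58.1 with trend on log2(TPM + 1), fits of the compared groups alone, a replicate block, leaving out each library and, chosen after seeing the data, library totals in place of TMM.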

Additional observations from a re-analysis of the deposited data

How the results depend on the processing

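For siPcgf5 against siControl and for the genotypes, none of the 10 genes was called in any alternative it was tested in, leaving out each library included. All 10 were tested except in the fit of the late 2-cell groups alone, which tested 9, without Ring1. The counts over all genes, which are the background, moved. At the late 2-cell stage 2 genes became 5 with DESeq2 size factors, 1 with library totals, 28 with no filter on low counts, 75 with the DESeq2 Wald test, 14 with limma on log2(TPM + 1) and 1 with only the groups compared, and 0 to 63 with a library left out. In morulae the count of 0 became 26 with no filter, 29 with DESeq2, 1 with only the groups compared and 0 to 6 with a library left out. The difference of effects gave 33 with no filter, 32 with DESeq2, 1 with limma and 0 to 5 with a library left out. Homo KO against WT gave 59 with no filter, 349 with DESeq2 and 0 to 30 with a library left out. Hetero KO against WT gave 1 with no filter, 13 with DESeq2 and 0 to 1 with a library left out. Homo KO against Hetero KO gave 131 with DESeq2, 2 with limma, 1 with only the groups compared and 0 to 4 with a library left out.

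Between late 2-cell and morula, library totals called 2890 of 16980 genes higher and 6302 lower in siPcgf5, and 2876 and 6280 in siControl. Limma called 2558 higher and 6846 lower in siPcgf5, and 2452 and 7388 in siControl. Of the 10 genes, library totals called 7 in siPcgf5 and 6 in siControl, and limma called 8 in each. With a library left out the numbers were 2 to 3 in siPcgf5 and 2 to 4 in siControl. WT 4-cell against siControl late 2-cell gave 2 with limma, 2 with only the groups compared and 2 to 3 with a library left out, where 3208 to 4656 of all genes were called. siControl morula against WT 4-cell gave 5 with library totals, 3 with DESeq2, 6 with limma and 1 to 2 with a library left out, where 3105 to 4162 of all genes were called. Over all genes, WT 4-cell against siControl late 2-cell gave 2388 higher and 5225 lower with limma (of 16669). With only the groups compared it gave 1707 and 2352 (of 14687). For siControl morula against WT 4-cell, library totals gave 1792 higher and 3477 lower and limma 1678 and 3622 (of 16669 each). DESeq2 gave 2971 and 3182 there (of 21049). The cause of these differences between settings was not tested.

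Some log2 fold changes, none of them called in edgeR with TMM, turned sign. For siPcgf5 over siControl at the late 2-cell stage, Rnf2 became -0.0042 with DESeq2 size factors, -0.0041 with library totals, -0.0043 with the Wald test and -0.08 with limma. Yaf2 became -0.0029, -0.03, -0.0028 and -0.04 in that order. In morulae Fbrsl1 became -0.03 with limma. In the difference of effects Rnf2 became 0.08, 0.04, 0.08 and 0.13 in the same order, and Auts2 0.0016 with size factors and 0.05 with limma. For morula over late 2-cell in siPcgf5, Rybp became -0.13 with library totals and -0.40 with limma, and L3mbtl2 -0.40 and -0.72. In siControl, Rybp became -0.21 and -0.55, Fbrsl1 -0.26 and -0.14, L3mbtl2 -0.24 and -0.51, and Mga -0.54 and -0.79, with -0.08 for Mga under size factors and under the Wald test. For Homo KO over WT, Yaf2 became -0.04 with library totals. For WT 4-cell over siControl late 2-cell, Rnf2 became -0.08 with size factors, -0.18 with library totals, -0.08 with the Wald test and -0.26 with limma, and Bcor -0.01 with library totals and -0.08 with limma. For siControl morula over WT 4-cell, Kdm2b became -0.07 with library totals and -0.36 with limma.

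Leaving out a library also turned signs of values that were not called, and the ranges follow. At the late 2-cell stage, siPcgf5 over siControl gave Rnf2 -0.20 to 0.24, Rybp -0.05 to 0.05, Yaf2 -0.30 to 0.45, Kdm2b -0.09 to 0.05, Bcor -0.20 to 0.03, Auts2 -0.46 to 0.46 and Mga -0.36 to 0.16. In morulae it gave Ring1 -0.03 to 1.13, Rybp -0.06 to 0.08, Kdm2b -0.10 to 0.47, Bcor -0.40 to 0.75, Auts2 -1.10 to 0.42, Fbrsl1 -0.54 to 0.88 and L3mbtl2 -0.02 to 0.43. The difference of effects gave Rnf2 -0.19 to 0.26, Rybp -0.05 to 0.10, Yaf2 -0.71 to 0.04, Kdm2b -0.08 to 0.50, Bcor -0.32 to 0.83, Auts2 -1.04 to 0.49 and Fbrsl1 -0.94 to 0.48. Morula over late 2-cell gave Fbrsl1 -0.22 to 0.16 and L3mbtl2 -0.05 to 0.40 in siPcgf5, and Fbrsl1 -0.49 to 0.93 and Mga -0.16 to 0.36 in siControl. Homo KO over WT gave Ring1 -0.01 to 1.45, Rnf2 -0.03 to 0.57, Yaf2 -0.25 to 0.29 and Bcor -0.38 to 0.27. Hetero KO over WT gave Ring1 -0.56 to 0.90, Rnf2 -0.22 to 0.38, Rybp -0.25 to 0.08, Yaf2 -0.06 to 0.49 and Kdm2b -0.23 to 0.11. Homo KO over Hetero KO gave Kdm2b -0.29 to 0.06, Fbrsl1 -0.65 to 0.53 and L3mbtl2 -0.11 to 0.46. WT 4-cell over siControl late 2-cell gave Rnf2 -0.25 to 0.33, and siControl morula over WT 4-cell gave Yaf2 -0.35 to 0.21. A lone library left in a group is assumed to vary like the other groups.

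Libraries with the same replicate number were not treated as paired. Their deviations from group means correlated at -0.101 to 0.123, which cannot exclude pairing in groups this small, and the labels do not state it. With the replicate block the count over all genes for siPcgf5 at the late 2-cell stage was 1 in place of 2, Fbrsl1 in Homo KO over Hetero KO became -0.07, and the number of the 10 genes called was the same in every comparison. Depth limits Ring1 and Fbrsl1 most, with at most 174 and 97 counts in a library.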
